A study of Mus musculus with 8 samples.

Results

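The genes described here are the OAS and OASL family members Oasl1, Oasl2, Oas1a, Oas1g, Oas2 and Oas3, 6 of the 27405 genes listed in the single-cell matrices of the study. They were taken by name from 4 cDNA libraries of CD45+ cells, sorted from MC38 tumours (a mouse colon carcinoma line) grown in wild-type mice. The 2 control and 2 LNP-Sirpa libraries were made with a droplet kit in 1 batch, and the series title describes tumour-directed degradation of SIRPα, an inhibitory receptor of phagocytes. The strain, age, dose and time, what the controls received, and whether the replicates came from separate animals are not stated in the labels. P-values therefore refer only to the variation among these 4 libraries, part or all of which may be technical.

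OAS proteins are enzymes that bind double-stranded RNA and then make short chains of linked adenosines, a second messenger of the antiviral response. OASL proteins share the OAS fold and carry ubiquitin-like domains, and mouse OASL1 is known to restrain translation of the interferon regulator IRF7. The family is induced by interferons in most cell types, and macrophages are a common site of its expression in inflamed and tumour tissue.

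Cells were assigned to gates by UMIs (unique molecular identifiers, 1 per captured transcript) of fixed marker genes per 10000 UMIs of the cell. Levels are given as CPM, the UMIs of a gene per 1000000 UMIs of all cells of that gate in 1 library. The libraries held from 68654004 to 90789729 UMIs and from 7504 to 10876 kept cells, and 830 to 1242 cell names recurred between any pair of libraries. The monocyte/macrophage gate held 5574 and 7594 control and 4457 and 5872 LNP-Sirpa cells. All 13 of its markers were detected, at 25459, 27763, 18365 and 18980 CPM in sum for control replicates 1 and 2 and LNP-Sirpa replicates 1 and 2, the order used throughout. Cells with both phagocyte and T-cell markers were kept out of the gates and made up 6.34, 13.2, 19.6 and 10.5% of kept cells. They held 9.23, 16.1, 26.4 and 11.4% of the family's UMIs. Sirpa RNA itself stood at 554, 553, 470 and 351 CPM in the monocyte/macrophage gate (log2 fold change -0.29 ± 0.19, adjusted p = 0.456, edgeR).

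LNP-Sirpa replicate 1 stood apart from replicate 2 for this family. In the monocyte/macrophage gate it held 2.31 (Oas1a) to 3.72 (Oas2) times the level of replicate 2, and 2.96 times for the 6 genes summed. Values are therefore given for both LNP-Sirpa libraries, and fold changes are also given with a library left out. A sum over a gate cannot tell fewer expressing cells from less RNA per cell, so counts per cell are described separately.

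In macrophages every member stood higher in both LNP-Sirpa libraries than in both controls, and 2 of the 6 passed the test. The 6 genes summed stood at 107 and 95.3 CPM in control and at 1071 and 362 CPM after LNP-Sirpa. The lowest LNP-Sirpa value lay above the highest control value for all 6 members and for 15.2% of all genes tested in this gate. The test across all genes (edgeR's quasi-likelihood F test on UMI sums, n = 2 libraries per group, Benjamini-Hochberg adjustment, threshold 0.05) called 2 of the 6 members higher, Oasl1 and Oas1g, against 1.45% of all 15973 genes called higher. The median log2 fold change of the 6 members was 2.61, beside -0.01 for all genes. With 1 library left out at a time, in the order above, the median of the members was 2.74, 2.48, 1.88 and 3.08.

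**Figure D1:**
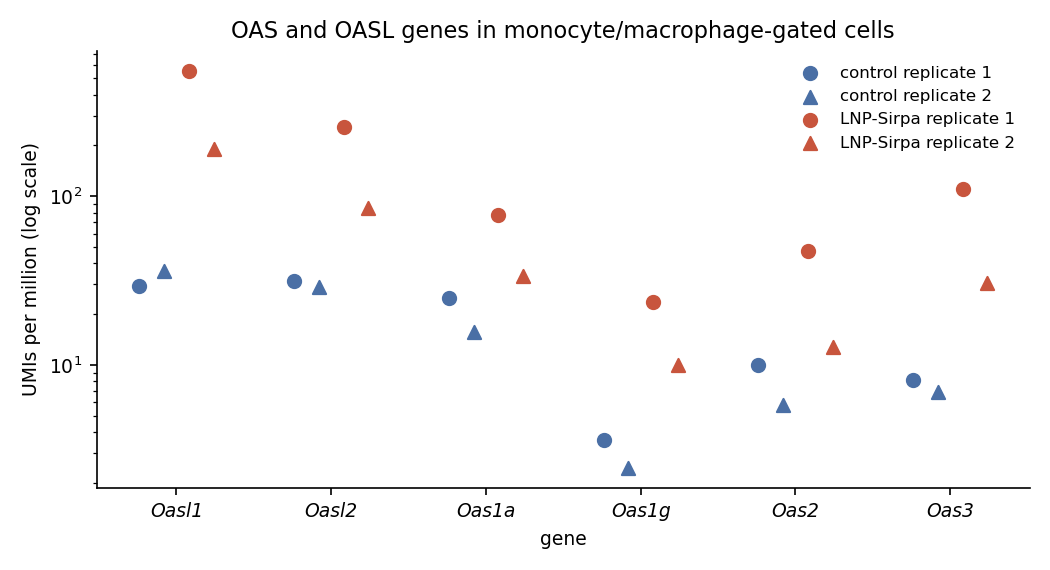
CPM on a log scale for each of the 6 genes in monocyte/macrophage-gated cells, 1 point per library. For each gene both LNP-Sirpa points lie above both control points, and replicate 1 lies above replicate 2 in the LNP-Sirpa group.

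Oasl1, the gene whose product restrains IRF7 translation, had the highest log2 fold change of the 6. Its level was 29.2 and 35.8 CPM in control and 555 and 190.0 CPM after LNP-Sirpa, from 1374, 2076, 18713 and 8962 UMIs. The group means were 32.5 ± 4.61 and 373 ± 258 CPM (SD, n = 2). The control libraries lay close together, and the LNP-Sirpa libraries were far apart but both well above them. The log2 fold change was 3.62 ± 0.50 (SE; adjusted p = 0.0440, edgeR), which placed Oasl1 at rank 21 of 15973 genes by this value. Leaving out control replicate 1 ended the call (adjusted p = 0.315, log2 3.45), and so did leaving out control replicate 2 (adjusted p = 0.166, log2 3.81). The adjusted p was 5.91e-05 when LNP-Sirpa replicate 1 was left out (log2 2.80) and 0.0793 with the mixed phagocyte and T-marker cells kept (log2 3.40).

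Oasl2, an OAS-like gene next to Oasl1 on chromosome 5, stood at 31.5, 28.8, 256.4 and 85.2 CPM. Again both treated libraries were above both controls, and replicate 1 was about 3 times replicate 2. The log2 fold change of 2.61 ± 0.47 missed the threshold (adjusted p = 0.0670, edgeR). It ranged from 1.76 to 3.13 with 1 library left out at a time.

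Of the enzymes, Oas1g gave 3.58 and 2.45 CPM in control and 23.7 and 10.0 CPM in LNP-Sirpa libraries, from 168, 142, 800 and 472 UMIs, and rose by a log2 value of 2.61 ± 0.39 (adjusted p = 0.0459, edgeR). The call ended without control replicate 1 (adjusted p = 0.227), without control replicate 2 (adjusted p = 0.186) and with mixed cells kept (adjusted p = 0.0926). Oas1a, its near relative, stood at 24.9, 15.6, 77.8 and 33.7 CPM (log2 1.59 ± 0.39, adjusted p = 0.113), the smallest difference of the 6. Its log2 value ranged from 1.00 to 2.00 with 1 library left out at a time. Single values of this pair are uncertain. In the GENCODE vM21 transcripts, 40.9% of the 100-base stretches of the Oas1a transcript (730 of 1786) also occur in Oas1g, and 38.2% of those of the Oas1g coding transcript (717 of 1878) also occur in Oas1a. None of the stretches of Oasl1, Oasl2, Oas2 or Oas3 recurred in another gene.

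The larger enzymes are built from repeated OAS units, and Oas3 is known to favour long double-stranded RNA. Oas3 stood at 8.11 and 6.92 CPM in control and at 111 and 30.7 CPM in LNP-Sirpa libraries, a log2 fold change of 3.33 ± 0.58 (adjusted p = 0.0629, edgeR). Its control libraries were within 1.2 CPM of each other. The log2 value ranged from 2.29 to 3.93 with 1 library left out at a time. Oas2 stood at 9.98, 5.81, 47.1 and 12.7 CPM, and LNP-Sirpa replicate 2 exceeded control replicate 1 by only a small margin. Its log2 fold change of 2.03 ± 0.60 missed the threshold (adjusted p = 0.159, edgeR) and fell to 0.96 when LNP-Sirpa replicate 1 was left out. Leaving out LNP-Sirpa replicate 2 gave 2.63. A predicted antisense gene overlaps Oasl1 and another transcript model overlaps Oas2 on the opposite strand. Whether counting used the strand is not given in the sources used here.

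The upstream sequences of the family members were searched because several of them are known interferon targets. The motif was GAAANNGAAA, the core of the interferon-stimulated response element, on both strands of the 250 bases before the gene start. The RefSeq promoter table (GRCm38.p6) held 5 of the 6 members, not Oas2, and 3 of the 5 contained the motif, as did 978 of 32851 promoters (2.98%) of all genes. Of 29 genes of the interferon pathway list in that table, 3 (10.3%) held it. The stretches around the matches are shown 5′ to 3′ in the direction of the gene, with the motif letters in capitals. Those of Oas1a and Oas1g are identical over the 38 bases of the Oas1g stretch, and that of Oas3 differs. The stretches lie at chr5:120907526-120907565 (Oas1a), chr5:120887614-120887651 (Oas1g) and chr5:120777705-120777754 (Oas3), all on the minus strand.
Oas1a: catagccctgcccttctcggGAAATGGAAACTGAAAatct
Oas1g: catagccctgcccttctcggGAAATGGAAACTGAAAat
Oas3: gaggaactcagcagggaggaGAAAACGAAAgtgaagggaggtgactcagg
In Oas1a and Oas1g 2 overlapping matches form the capital stretch, which begins 20 and 18 bases before the start. The single match of Oas3 begins 75 bases before it. The upstream 250 bases of Oas1a and Oas1g were identical at 158 of 248 compared bases (63.7%, at an offset of 2) with a longest shared run of 56 bases. Oasl1 and Oasl2, with log2 fold changes of 3.62 and 2.61 in macrophages, had no match to these letters in the window. A match is a description of the letters, and no binding was measured.

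A larger share of macrophages held family transcripts in both LNP-Sirpa libraries than in the controls. To compare cells at equal depth, each cell was thinned to 2000 UMIs, which left 4682, 6537, 3807 and 5154 cells of the gate and dropped 892, 1057, 650 and 718 shallower ones. At least 1 UMI of any member was then present in 17.0% of cells of control replicate 1 (16.0 to 18.1, 95% Wilson interval) and 14.6% of replicate 2 (13.8 to 15.5). It was present in 79.2% (77.9 to 80.5) and 42.2% (40.8 to 43.5) of LNP-Sirpa cells. Without thinning these shares were 40.4, 33.4, 93.3 and 71.7%, at median depths of 6724, 6357, 6228 and 6784 UMIs. The intervals cover counting error only.

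The single members followed the same order of libraries. Oasl1 was detected in 4.83, 5.34, 50.1 and 22.5% of thinned cells and Oasl2 in 6.39, 5.60, 37.4 and 15.6%. Oas3 was detected in 1.60, 1.15, 19.4 and 6.13%. Both LNP-Sirpa libraries exceeded both controls for each of the 6 members. The mean number of family UMIs per thinned cell was 0.235 and 0.217 in control and 2.25 and 0.809 in LNP-Sirpa libraries.

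Cells with several members at once were rare in control. At least 3 different members were seen in 0.449 and 0.367% of control cells and in 12.3 and 1.84% of LNP-Sirpa cells. At least 5 family UMIs were present in 9 and 23 control cells (0.192 and 0.352%) and in 451 and 132 LNP-Sirpa cells (11.8 and 2.56%).

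**Figure D2:**
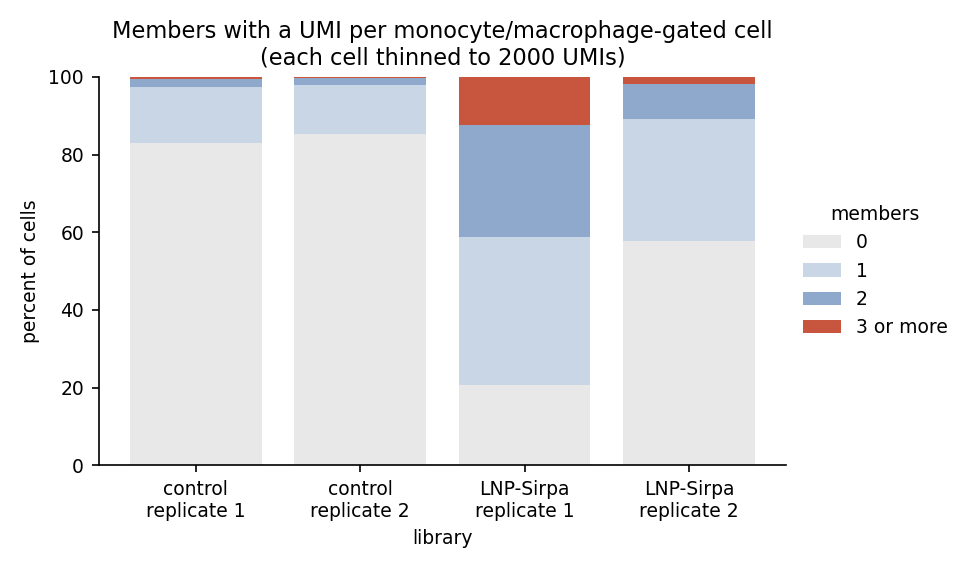
Percent of monocyte/macrophage-gated cells by the number of different members with at least 1 UMI, each cell thinned to 2000 UMIs, 1 bar per library. No member was seen in 83.0 and 85.4% of control cells and in 20.8 and 57.8% of LNP-Sirpa cells.

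Members were also seen together within cells. Among thinned cells of the controls Oasl2 was detected in 15.5 and 14.0% of cells with an Oasl1 UMI and in 5.92 and 5.12% of cells without one. In the LNP-Sirpa libraries these shares were 40.4 and 22.2% with and 34.4 and 13.6% without an Oasl1 UMI. Oas3 was detected in 6.64 and 4.01% of control cells with and in 1.35 and 0.986% without an Oasl1 UMI. In LNP-Sirpa replicate 1 the Oas3 shares were 19.2 and 19.6%, and in replicate 2 they were 8.55 and 5.43%. In both controls every other member was found more often beside Oasl1. In LNP-Sirpa replicate 1 this held for Oasl2 and for Oas2 (10.2% with and 7.74% without an Oasl1 UMI). There the shares were nearly equal for Oas3 and Oas1a (14.9 and 14.4% for Oas1a), and that of Oas1g was slightly lower beside Oasl1. In replicate 2 every share was higher beside Oasl1, though by little for Oas2 (2.59 and 2.18%). All cells had the same number of UMIs, and these shares carry no test.

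The difference was present in macrophages with much and with little complement C1q RNA, a marker of resident-like tumour macrophages. Cells were split at a summed C1qa, C1qb and C1qc score of 100.5 UMIs per 10000, the mean of the 4 library medians. Above this score lay 3230 of 5574, 4994 of 7594, 1887 of 4457 and 2164 of 5872 cells. In these C1q-high cells Oasl1 stood at 27.8, 30.1, 489 and 168 CPM. In the cells below the score Oasl1 stood at 32, 52.1, 624 and 209 CPM. Oas3 gave 7.20, 5.93, 113 and 28.9 CPM in C1q-high cells and 9.86, 9.81, 109 and 32.2 CPM in C1q-low cells. Other markers moved with treatment in this gate. The 10 neutrophil markers summed to 72.0, 75.5, 245 and 154 CPM, the 9 T-cell markers to 30.1, 43.1, 85.0 and 46.7 CPM and the 4 cycling genes to 432, 325, 226 and 210 CPM, with every list detected in full in each library. Their part in the family's difference was not tested.

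Other gates held the family at different levels. The 6 genes summed stood at 233, 221, 2119 and 1003 CPM in the neutrophil gate and at 103, 168, 931 and 420 CPM in the dendritic gate. They stood at 34.3, 48.7, 464 and 185 CPM in the fibroblast gate and at 46.9, 16.8, 377 and 120 CPM in the regulatory T gate. The CD8 T gate gave 57.3, 21.0, 277 and 87.9 CPM, and the NK gate 58.1, 51.4, 239 and 121 CPM. In LNP-Sirpa replicate 1 the order ran from neutrophil through monocyte/macrophage, dendritic, fibroblast, regulatory T and CD8 T to NK cells. The ranges of the LNP-Sirpa libraries overlapped between all neighbours in that order. In both groups the neutrophil gate was the highest in every library. These orders are descriptions with no test.

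**Figure D3:**
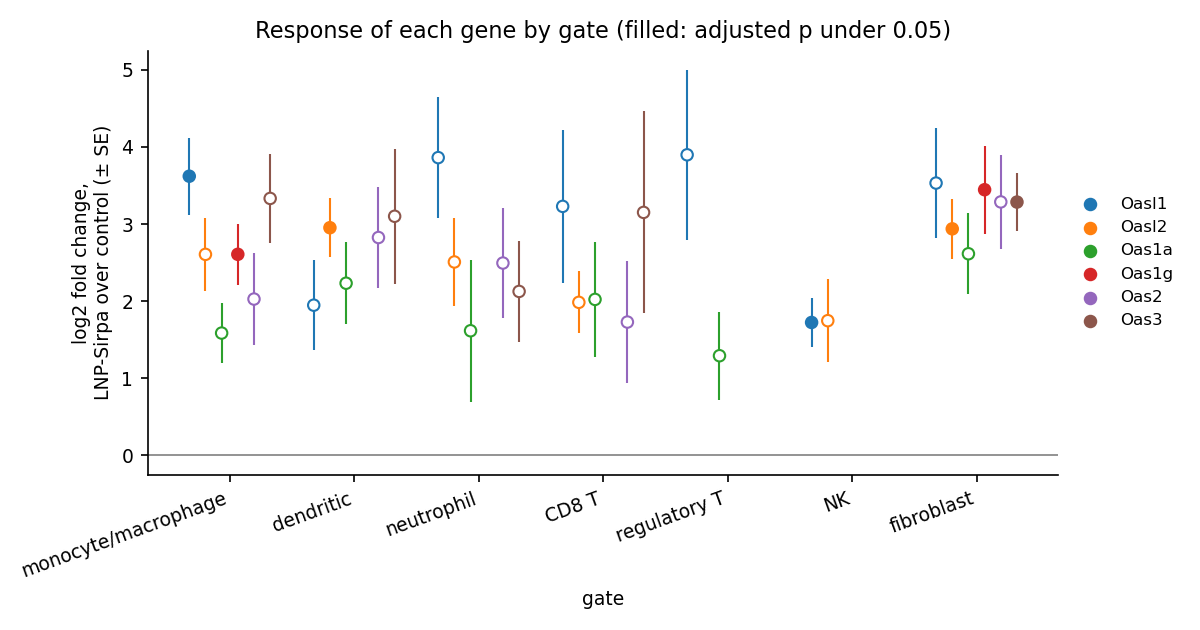
Log2 fold change of LNP-Sirpa over control with its SE for each member that passed the filter on low counts, by gate (filled points: adjusted p under 0.05, edgeR). All 31 values lie above 0, and 14 of them belong to members that passed the filter only with the help of the LNP-Sirpa libraries. The threshold is passed by 7, of which 6 are among the 17 that the controls alone carried through the filter. The gates share the same 4 libraries, and 0 (neutrophil) to 1.45% (monocyte/macrophage) of all genes tested in a gate were called higher.

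In the dendritic gate (136, 194, 263 and 65 cells) Oasl2 rose, from 23.6 and 17.0 to 200.1 and 132 CPM (log2 2.95 ± 0.38, adjusted p = 0.0129, edgeR). It was the only 1 of 5 members tested that passed, against 0.222% of all genes in this gate. Of the 5, Oas1a, Oas2 and Oas3 passed the filter on low counts only with the help of the LNP-Sirpa libraries. The Oasl2 call ended when a control library was left out (adjusted p = 0.124 for replicate 1 and 0.316 for replicate 2). The makeup of the gate also varied between libraries. Xcr1, a marker of type 1 dendritic cells, stood at 55.1, 190.0, 178 and 4.12 CPM, the last from a single UMI. Csf1r, the macrophage receptor, stood at 102, 99.0, 71.0 and 165 CPM, or 16.4, 15.6, 18.2 and 49.2% of its level in the monocyte/macrophage gate, and C1qa stood at 11.5, 9.60, 11.03 and 17.8% of its level there. Their part in the difference was not tested. Oasl1 was high in the controls here, at 53.9 and 144 CPM, and stood at 602 and 198 CPM after treatment (log2 1.95 ± 0.59, adjusted p = 0.313). With 1 library left out at a time the log2 value ranged from 0.79 to 2.75 for Oasl1 and from 2.51 to 3.23 for Oasl2. Oas3 stood at 10.1, 0.812, 62.8 and 16.5 CPM and Oas2 at 6.74, 1.62, 26.0 and 41.2 CPM, on 10 or fewer UMIs in 3 of the 4 libraries. All 6 members had both LNP-Sirpa values above both controls, as had 27.5% of all genes.

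The neutrophil gate was small in control (21 and 22 cells, against 163 and 120), and its 10 markers summed to 47727, 30317, 139149 and 95588 CPM. Oasl1 was counted 2 and 7 times in control and 526 and 114 times in LNP-Sirpa libraries, which gave 27.4, 73.6, 1076 and 385 CPM. The log2 fold change was 3.86 ± 0.78 (adjusted p = 0.0918, edgeR). The macrophage receptor Csf1r stood at 453, 600, 137 and 196 CPM in this gate, and its part in the difference was not tested. Oasl2 stood at 68.6, 105, 597 and 358 CPM (log2 2.51 ± 0.57, adjusted p = 0.0997). edgeR called 0 of the 5 tested members, and 0% of the 3009 genes tested as higher. At an unadjusted p under 0.05 there were 4 of the 5, and DESeq2 called 2. Since only Oasl2 passed the filter on the controls alone, these counts say nothing of the family. With each library left out in turn the log2 value of Oasl2 ranged from 2.06 to 3.13. That of Oasl1, which needed the LNP-Sirpa libraries to pass the filter, ranged from 2.89 to 5.05. Oas1g had no UMI in either control, where a count of 0 allows up to 41.1 and 31.6 CPM, and 26.6 and 10.1 CPM after treatment. Both LNP-Sirpa values exceeded both controls for 5 of 6 members and for 22.9% of all genes, and Oas1a was the exception at 54.9, 0, 88.0 and 47.3 CPM.

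Among T and NK cells the values were lower. In the CD8 T gate (59, 324, 635 and 436 cells) Oasl1 stood at 19.1 and 6.22 CPM in control and at 134 and 39.4 CPM after LNP-Sirpa (log2 3.23 ± 0.99, adjusted p = 0.577, edgeR). Oasl2 stood at 9.55, 9.09, 50.2 and 23.2 CPM (log2 1.98 ± 0.40, adjusted p = 0.0510). Oas3 ranged from 1.91 to 11.9 CPM in control and stood at 56.6 and 13.3 CPM after treatment. edgeR called 0 of 5 members (4 at an unadjusted p under 0.05, 0 with DESeq2), against 0.245% of genes called higher. Of the 5, Oas1a, Oas2 and Oas3 needed the LNP-Sirpa libraries to pass the filter, so these counts are no support. Both LNP-Sirpa values exceeded both controls for 3 of 6 members, beside 19.1% of all genes, and Oas1a, Oas1g and Oas2 overlapped. With 1 library left out at a time the log2 value ranged from 1.42 to 2.35 for Oasl2 and from 2.20 to 3.83 for Oasl1.

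In the regulatory T gate (62, 62, 233 and 166 cells) Oasl1 was counted 5, 0, 218 and 41 times, or 14.7, 0, 180.0 and 58.6 CPM. The 0 allows up to 10.1 CPM. Only Oasl1 and Oas1a passed the filter, both through their treated libraries alone, so how many of them pass a threshold carries no weight. Neither was called by edgeR (log2 1.29 ± 0.57 and adjusted p = 0.545 for Oas1a; 0.443% of all genes were called higher), both had an unadjusted p under 0.05, and DESeq2 gave neither an adjusted p. With 1 library left out at a time the log2 value of Oasl1 ranged from 2.87 (without LNP-Sirpa replicate 1) to 9.50. These values also rest on the entry of Oasl1 through its treated libraries, and control replicate 2 held no Oasl1 UMI. Both LNP-Sirpa values exceeded both controls for 5 of 6 members and 20.4% of all genes.

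In the NK gate (93, 56, 263 and 70 cells) Oasl1 rose from 32.4 and 43.5 to 158 and 77.4 CPM (log2 1.72 ± 0.32, adjusted p = 0.0254, edgeR). That made 1 of 2 tested members, against 0.41% of genes, and the other, Oasl2, needed the LNP-Sirpa libraries to pass the filter. The adjusted p was 0.0510 without control replicate 1, 0.199 without LNP-Sirpa replicate 1 (log2 1.08), 0.0970 with DESeq2 and 0.197 with mixed cells kept. Oasl2 stood at 10.5, 1.98, 30.8 and 15.5 CPM (log2 1.75 ± 0.54, adjusted p = 0.198). With 1 library left out at a time the log2 value of Oasl1 ranged from 1.08 to 2.03. Both LNP-Sirpa values exceeded both controls for 4 of 6 members and 21.8% of all genes, and Oas1a and Oas1g overlapped.

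A fibroblast gate of 282, 287, 324 and 131 cells held collagen-rich cells with little of the sorted marker. Its 9 fibroblast markers summed to 10119, 10467, 9600 and 8026 CPM, and Ptprc, which encodes CD45, stood at 20.1, 26.6, 42.5 and 18.9 CPM, compared with 257, 279, 411 and 352 CPM in the monocyte/macrophage gate. Oas1g passed the filter only through its treated libraries. Of the other 5 members edgeR called 2 higher, Oasl2 and Oas3, against 0.699% of the 11585 genes tested. The median log2 fold change of these 5 was 3.29, beside -0.0040 for all genes. With each library left out in turn the median of all 6 members, Oas1g among them, was 2.89, 3.52, 2.24 and 3.68. All 6 members had both LNP-Sirpa values above both controls, as had 16.1% of all genes.

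Oas3 in fibroblast-gated cells stood at 6.15 and 5.99 CPM in control and at 75.7 and 33.7 CPM in LNP-Sirpa libraries (log2 3.29 ± 0.38, adjusted p = 0.0134, edgeR). The control libraries were nearly equal, and the call held with each library left out in turn, with a log2 value of at least 2.61. Oasl2 rose from 14.2 and 25.5 to 189 and 97.7 CPM (log2 2.94 ± 0.39, adjusted p = 0.0340), and its adjusted p was 0.0751 without LNP-Sirpa replicate 1. Oas1g stood at 0.473, 1.56, 12.9 and 7.41 CPM on 2, 6, 53 and 11 UMIs (log2 3.45 ± 0.57, adjusted p = 0.0453), and its passing the threshold is no support because it entered the test by its treated values. The call also ended without control replicate 1 (adjusted p = 0.0761) and without LNP-Sirpa replicate 1 (adjusted p = 0.259). Oasl1 stood at 4.02, 4.95, 76.9 and 16.9 CPM (log2 3.53 ± 0.71, adjusted p = 0.140), Oas2 at 3.55, 4.95, 59.3 and 15.5 CPM (log2 3.29 ± 0.61, adjusted p = 0.0978) and Oas1a at 5.92, 5.73, 50.04 and 14.2 CPM (log2 2.61 ± 0.53, adjusted p = 0.112). With a library left out, the log2 values of these 3 ranged from 2.04 to 4.13, from 2.00 to 3.84 and from 1.42 to 3.13.

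The balance of members varied between gates, which is described here with no test. In the monocyte/macrophage gate 46.2 and 44.8 Oasl2 UMIs were counted per 100 Oasl1 UMIs in the LNP-Sirpa libraries, down from 108 and 80.6 in control. In the fibroblast gate the same ratio was 246 and 580 after treatment. More Oasl2 than Oasl1 was already counted there in control, with 60 and 98 Oasl2 UMIs beside 17 and 19 Oasl1 UMIs. The CD8 T gate gave 37.5 and 58.9, the NK gate 19.5 and 20 and the neutrophil gate 55.5 and 93.0. Oas2 showed the same contrast, with 8.49 and 6.67 UMIs per 100 Oasl1 UMIs in the monocyte/macrophage gate and 77.1 and 92.0 in the fibroblast gate. Oas3 gave 19.9 and 16.1 in the monocyte/macrophage gate, 98.4 and 200 in the fibroblast gate and 42.3 and 33.7 in the CD8 T gate.

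Each gate was also set against the macrophages of its own library. For the members this restates the same counts in another form and is no separate support for the contrast. In the fibroblast gate Oasl1 reached 13.9 and 8.87% of the macrophage level in LNP-Sirpa replicates 1 and 2, while Oasl2 reached 73.8 and 115% and Oas3 68.4 and 110%. In the controls Oasl1 stood at 13.8 and 13.8% and Oasl2 at 45.0 and 88.5%, so the order of the 2 genes was the same without treatment. The macrophage transcripts C1qa and Csf1r stood at 4.25 and 5.07% and at 6.86 and 6.84% in the LNP-Sirpa libraries. In the CD8 T gate Oasl1 reached 24.1 and 20.7% and Oas3 51.2 and 43.3%, with C1qa at 9.10 and 7.49% and Csf1r at 15.2 and 14.8%. NK cells gave 28.4 and 40.7% for Oasl1, 6.78 and 6.91% for C1qa and 9.08 and 10.8% for Csf1r. Regulatory T cells gave 32.4 and 30.8% for Oasl1, 11.4 and 9.74% for C1qa and 15.4 and 19.2% for Csf1r. The part of macrophage RNA in the family values of these gates was not tested.

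**Figure D4:**
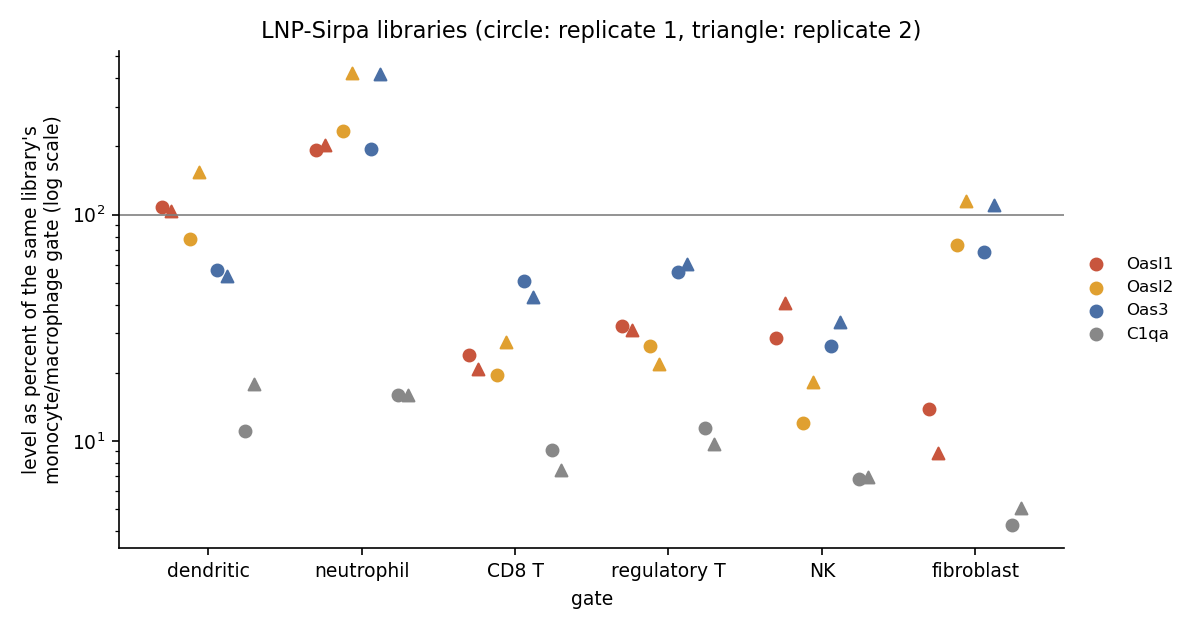
Level in each gate as percent of the monocyte/macrophage gate of the same library, on a log scale, for the LNP-Sirpa libraries (circles replicate 1, triangles replicate 2). In the fibroblast gate Oasl1 lies at 13.9 and 8.87% while Oasl2 lies at 73.8 and 115%, and C1qa, a macrophage transcript, lies at 4.25 and 5.07%.

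Whether treatment acted more on a member in 1 gate than in macrophages was tested as an interaction of treatment and gate in 1 edgeR fit over all sums, with the library as a block. None of the 6 members passed in any of the 6 gates. The shares of all 12071 genes that passed were 0.0828% in dendritic, 0.174% in neutrophil, 0.215% in CD8 T, 0.0746% in regulatory T, 0.116% in NK and 0.514% in fibroblast-gated cells. An unadjusted p under 0.05 was reached by 4 of the 36 comparisons. The log2 fold change of Oasl1 minus that in macrophages was -1.75 ± 0.39 in the dendritic gate (adjusted p = 0.0730, edgeR) and -2.05 ± 0.46 in the NK gate (adjusted p = 0.0637). Over the fits with 1 library left out, the dendritic difference ranged from -2.14 to -1.18 and the NK difference from -2.10 to -1.78. In the fibroblast gate Oas1a and Oas2 differed by 0.90 ± 0.39 (adjusted p = 0.531) and 1.19 ± 0.44 (adjusted p = 0.373) in the other direction. The values in the other 32 comparisons are not shown to be equal by this test.

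2 further genes of the pathway list, Abce1 and Pde12, did not pass the test in macrophages. Abce1, which encodes a ribosome recycling factor, stood at 32.8, 26.9, 27.8 and 28.6 CPM (log2 0.08 ± 0.16, adjusted p = 0.830, edgeR). Pde12, a phosphodiesterase that degrades the adenosine chains made by the enzymes, stood at 10.2, 8.97, 9.46 and 7.99 CPM (log2 0.01 ± 0.16, adjusted p = 0.977). The control and LNP-Sirpa values overlapped for both genes, unlike those of the 6 members.

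Of 33 other genes of the interferon and OAS pathway, chosen as genes tied to the OAS products, ligands, receptors and their kinases, transcription factors, nucleic acid sensors and restraints, 32 were tested in macrophages. In this gate 4 were higher and 0 lower, with a median log2 fold change of 0.78, against 1.45% of all genes called higher. Jak2, a kinase of cytokine receptors, rose from 23.7 and 26.6 to 54.0 and 43.7 CPM (log2 1.10 ± 0.15, adjusted p = 0.0288, edgeR). Zbp1, a sensor of unusual nucleic acids, rose from 50.8 and 55.6 to 335 and 161 CPM (log2 2.34 ± 0.31, adjusted p = 0.0322). Socs1, a feedback inhibitor of the kinases, rose from 4.00 and 4.36 to 16.0 and 9.64 CPM (log2 1.75 ± 0.23, adjusted p = 0.0285). Samhd1, an enzyme that degrades the building blocks of DNA, rose from 144 and 163 to 498 and 312 CPM (log2 1.53 ± 0.22, adjusted p = 0.0344). Each of the 4 lost the threshold with either control library left out, with adjusted p from 0.0783 (Socs1) to 0.230 (Samhd1), and with mixed cells kept, from 0.0699 (Zbp1) to 0.0850 (Socs1).

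The transcript that OASL1 acts on was also higher in both treated libraries. Irf7 stood at 32.2 and 28.4 CPM in control and at 263 and 90.4 CPM in LNP-Sirpa macrophages (log2 2.65 ± 0.46, adjusted p = 0.0621, edgeR), which missed the threshold. Ifnb1, the interferon beta ligand, stood at 1.62, 3.51, 8.19 and 8.90 CPM (log2 1.88 ± 0.40, adjusted p = 0.0750). LNP-Sirpa replicate 2 was as high as replicate 1 for Ifnb1, unlike for the family. These genes were named after their values were seen.

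In fibroblast-gated cells 7 of 31 tested pathway genes were higher and 0 lower, against 0.699% of all genes called higher. Those named here were chosen after their values were seen. Stat2 and Irf9, which encode parts of an interferon-activated transcription factor, had log2 fold changes of 2.49 ± 0.33 and 1.36 ± 0.21 (adjusted p = 0.0270 and 0.0356, edgeR). Stat2 stood at 24.4, 29.4, 192 and 93.0 CPM. Further ones were Irf7 (log2 2.19 ± 0.34), Zbp1 (2.84 ± 0.24), the interferon restraint Usp18 (3.24 ± 0.47) and Samhd1 (1.46 ± 0.22). In the CD8 T gate 2 of 30 were higher, against 0.245% of all genes. They were Ifih1, a sensor of double-stranded RNA (log2 1.58 ± 0.32, adjusted p = 0.0462, edgeR), and Zbp1 (log2 2.17 ± 0.36, adjusted p = 0.0463). The dendritic, neutrophil, regulatory T and NK gates had 0 of 28, 17, 24 and 26 past the threshold. There 11, 8, 7 and 8 were higher at an unadjusted p under 0.05 with edgeR. Of all genes, 806 of 8119, 587 of 3009, 540 of 6539 and 696 of 7077 had such a p in either direction. Which pathway genes passed the filter only through the treated libraries was not examined.

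The genes most like the summed family across cell types were sought over 28 sums (7 gates in 4 libraries), by the Pearson correlation of log2(CPM + 10) among 6185 genes with a mean of at least 20 CPM. They were Rnf213 (r = 0.956), Rsad2 (0.922), Ifi204 (0.916), Trafd1 (0.912) and Ly6i (0.899), and the median over all genes was -0.07. Rnf213 encodes a large ubiquitin ligase and Rsad2 the antiviral enzyme viperin. By Spearman correlation 4 of these 5 were again among the first 5, with Dhx58 in place of Ifi204. Within single libraries, over 7 gates each, r with Rnf213 was 0.965 and 0.854 in control and 0.899 and 0.966 in LNP-Sirpa libraries. The 28 sums share libraries, treatment and depth, so these values are descriptions. Rnf213 stood at 102 and 93.2 CPM in control and at 432 and 171 CPM in LNP-Sirpa macrophages, with the gap between replicates that the family showed.

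**Figure D5:**
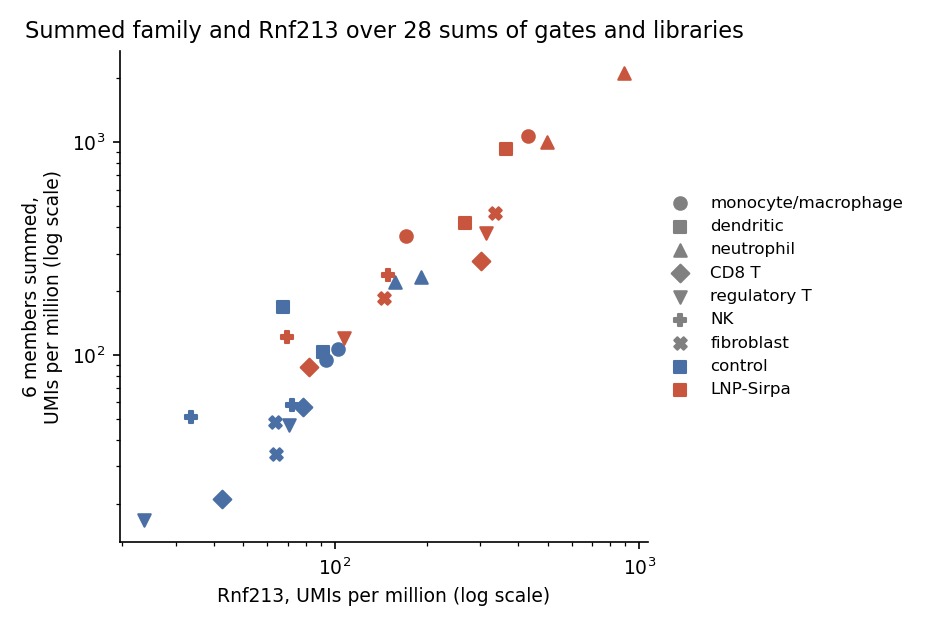
CPM of the 6 members summed against CPM of Rnf213, both on log scales, 1 point for each of 28 sums (shape: gate, colour: group). The points rise together (Pearson r = 0.956), with neutrophil and macrophage sums of LNP-Sirpa libraries at the upper end.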

How the data were processed

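Per the labels' protocols, polyA RNA of sorted cells was processed with a DNBelab C Series droplet kit and sequenced on a DNBSEQ-T7. The submitters' processing notes name STAR 2.5.1b and the GRCm39 build. The authors deposited matrices of UMI counts, whole numbers for each gene in each cell. The sources used here do not give the annotation or how cells were called. Genes missing from 1 library's list got 0 there, the 4 oligo libraries were not analysed here, and 0 columns of per-sample values were left unused.

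Cells were kept with 500 or more UMIs, 300 or more genes and a mitochondrial share of up to 15% (7, 14, 16 and 3 failed). Gates used marker UMIs per 10000: at least 50 for monocyte/macrophage and neutrophil, 30 for NK and fibroblast and 20 for dendritic and T cells, with upper limits on the other lists. These thresholds were set after marker values had been seen, and those for NK cells and neutrophils were adjusted after a first look at cell numbers. Gated cells were 83.4, 79.0, 62.7 and 77.4% of kept cells. No doublet caller was run, and cells with phagocyte and T markers were left out. UMIs were summed per library and gate, for gates with at least 20 cells in each library, and tested with edgeR 4.0.16 under R 4.3.3 (filterByExpr, TMM factors, a robust quasi-likelihood fit and Benjamini-Hochberg adjustment over all genes of a gate), after a check on simulated data. Named genes were the 6 members, the listed genes tied to the OAS products, other listed pathway genes past the threshold in the monocyte/macrophage gate, and the 5 genes most like the family. Some results named by this rule are not reported here. The members and lists were chosen with earlier results of these data known. Figures used matplotlib 3.10.9 and tables pandas 2.3.3.

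The tests were repeated with DESeq2 1.42.0, with edgeR using DESeq2's size factors, without the filter on low counts, with each library omitted, and with the replicate number as a block, mixed cells kept, thresholds raised 1.5 times, cells thinned to 2000 UMIs, cells over 3 times the median depth left out, and C1q-high or C1q-low cells alone.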

Additional observations from a re-analysis of the deposited data

How the results depend on the processing

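The counts of members past the threshold depended on the setting, and the direction of the members did not: all 432 member values over gates and settings were above 0, though 14 of the 31 main values passed the filter on low counts only with the help of the treated libraries. In the monocyte/macrophage gate the main count of 2 became 1 without the filter on low counts, 5 with DESeq2, 0 with mixed cells kept, 1 with raised thresholds, and 0 and 1 in C1q-high and C1q-low cells alone. All genes called higher in that gate numbered 231 in the main fit, 1126 without the filter, 922 with DESeq2 and 17 with mixed cells kept. They numbered 168 with raised thresholds, and 2 and 234 in C1q-high and C1q-low cells. In the dendritic gate (main 1) the count of members was 5 without the filter and 2 with raised thresholds. All genes called higher there went from 18 in the main fit to 131 and 35. In the neutrophil gate (main 0) the count of members was 4 without the filter and 2 with DESeq2, while that of all genes went from 0 to 167 and 65. In the CD8 T gate (main 0) the count of members was 1 with DESeq2's size factors, 4 without the filter and 2 with mixed cells kept. That of all genes went from 25 to 28, 182 and 64. In the regulatory T gate (main 0) the count of members was 3 without the filter, while that of all genes went from 29 to 122. In the NK gate (main 1) the count of members was 2 without the filter. It was 0 with DESeq2, with mixed cells kept, with raised thresholds, with thinned cells and with deep cells left out. That of all genes went from 29 to 129 without the filter and to 17, 45, 12, 1 and 6 in the other settings. In the fibroblast gate (main 3) the count of members was 6 without the filter, with DESeq2 and with deep cells left out. That of all genes went from 81 to 447, 175 and 119. As the number of all genes called moved with the setting too, these counts of members are no support.

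With 1 library left out the number of members called moved in every gate. The number of all genes called moved too, so these numbers are no support. The number of members differing from macrophages moved in the dendritic and NK gates alone. In these fits the lone library of a group is assumed to vary like the other group. With the replicate number as a block the counts of members called were 5, 1, 0, 3, 1, 1 and 1. This is in the order monocyte/macrophage, dendritic, neutrophil, CD8 T, regulatory T, NK and fibroblast. All genes called higher with the block numbered 386, 22, 0, 75, 80, 41 and 41 in that order. In the main fits they numbered 231, 18, 0, 25, 29, 29 and 81. Same-numbered libraries deviated from their group means with correlations from -0.11 (fibroblast) to 0.08 (CD8 T). With so few libraries these values cannot tell whether the numbers pair the samples. Crossing the numbers in the fibroblast gate, chosen after seeing the data, gave 6 members, and 350 of all genes were then called higher.

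Of 466 fold changes under alternatives 8 changed sign, all of Abce1 and Pde12 in the monocyte/macrophage gate, whose main values were 0.08 and 0.01. With a library left out Abce1 ranged from -0.055 to 0.20 and Pde12 from -0.038 to 0.070. Pde12 was -0.0091 without the filter, -0.18 with thinned cells, -0.017 with deep cells left out and -0.081 in C1q-high cells. The cause was not tested. The Foxp3-negative CD4 T, B and mast and basophil gates had under 20 cells in a library and were not tested, and raised thresholds and thinning could not be run for neutrophils. Depth limits the low members outside macrophages, where a control value often rests on fewer than 10 UMIs.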

Other observations

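3 gates had too few cells for a test. Foxp3-negative CD4 T cells numbered 12, 31, 116 and 100, and Oasl1 was counted 0, 11, 75 and 22 times there in the same order of libraries. B cells numbered 14, 11, 7 and 4, with 6, 1, 17 and 0 UMIs of the 6 members together. Mast cells and basophils numbered 6, 7, 15 and 2, with 0, 1, 16 and 2 family UMIs.

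Other OAS genes were low. Oas1c stood at 4.43, 3.60, 7.45 and 4.79 CPM in the monocyte/macrophage gate (log2 0.75 ± 0.23, adjusted p = 0.136, edgeR), and Oas1d, Oas1e, Oas1f and Oas1h had at most 3 UMIs there in any library. Oas1b was not analysed here.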
